A study of Mus musculus with 28 samples.

Results

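The genes described here are 40 named genes of glycolysis and of the response to low oxygen, taken by gene symbol from an mRNA profile of mouse embryonic stem (ES) cells. They were chosen by function, with earlier results of these data known. Of the 40, 37 had a probe set annotated with that symbol alone, out of 19938 symbols so annotated. A gene with several was represented by the one with the highest level averaged over the 28 arrays. Gpi1, Eno1 and Gapdh had none and were not used here. Car9, a carbonic anhydrase, had group means between 5.77 and 6.21 on the log2 scale and fell under the filter on low values (6.42), which left 36 of the 37 among 13956 tested genes.

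The study asked how hotspot mutations of DICER1, the ribonuclease that cuts microRNAs from their precursors, affect that processing, and it ran 28 Affymetrix Mouse Gene ST arrays. Both parental lines carried no transgene: a Dicer+/+ line (Dicer-WT, n = 2 arrays) and a Dicer-/- line (Dicer-null, n = 3). The other 7 groups were Dicer-/- cells with a transgene. In the vector pLD-puro-ENvA these were eGFP (n = 3), wild-type DICER1 (n = 4 of its 6 arrays), D1709A (n = 4), E1705K (n = 3) and D1810Y (n = 3). In pLD-puro-PGKnvA they were D1709N (n = 2), E1813Q (n = 2) and the remaining 2 arrays of wild-type DICER1. Cells were grown in an incubator with 5% CO2, and the labels name 1 line per genotype or transgene and give no oxygen level. They do not say whether arrays of a group came from separate cultures, so the p-values reflect only array-to-array spread, which could be technical.

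Glycolysis splits glucose into pyruvate in a fixed series of enzyme steps, and lactate dehydrogenase turns pyruvate into lactate, which leaves the cell through monocarboxylate transporters. When oxygen is low, the prolyl hydroxylases encoded by Egln1 and Egln3 no longer mark the HIF1A protein for destruction. HIF1A then pairs with ARNT and binds hypoxia response elements, whose core is ACGTG or GCGTG, in many glycolytic and hypoxia-inducible genes. HIF1A is controlled mainly as a protein, so the mRNA values below do not measure its activity. Mouse ES cells are known for a high rate of glycolysis.

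The promoters of Bnip3, Aldoc, Vegfa and Ldhb are printed because these genes carried several of the largest differences. They are the first such genes whose upstream window lay wholly before the annotated gene. Each is the 250 bases before the most upstream start site in RefSeq (build GRCm38.p6), 5′ to 3′ on the gene's strand. Capitals mark every ACGTG or GCGTG on either strand, which read on the other strand as CACGT or CACGC. Overlapping matches, as in CACGTG, were counted separately.
Bnip3, chr7:138909507-138909756, minus strand: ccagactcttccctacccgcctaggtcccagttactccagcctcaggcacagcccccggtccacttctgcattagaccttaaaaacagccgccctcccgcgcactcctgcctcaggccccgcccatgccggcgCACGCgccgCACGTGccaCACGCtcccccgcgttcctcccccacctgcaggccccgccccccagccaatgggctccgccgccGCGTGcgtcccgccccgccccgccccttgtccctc
Aldoc, chr11:78322823-78323072, plus strand: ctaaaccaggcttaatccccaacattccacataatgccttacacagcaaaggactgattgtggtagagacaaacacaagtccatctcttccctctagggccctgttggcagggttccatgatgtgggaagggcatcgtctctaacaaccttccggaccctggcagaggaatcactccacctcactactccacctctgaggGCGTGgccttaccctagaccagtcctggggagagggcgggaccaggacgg
Vegfa, chr17:46032378-46032627, minus strand: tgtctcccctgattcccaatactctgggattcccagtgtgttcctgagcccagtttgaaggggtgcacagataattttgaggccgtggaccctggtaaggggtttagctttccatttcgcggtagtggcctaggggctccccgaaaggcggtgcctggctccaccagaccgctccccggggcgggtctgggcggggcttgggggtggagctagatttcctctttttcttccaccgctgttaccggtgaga
Ldhb, chr6:142507958-142508207, minus strand: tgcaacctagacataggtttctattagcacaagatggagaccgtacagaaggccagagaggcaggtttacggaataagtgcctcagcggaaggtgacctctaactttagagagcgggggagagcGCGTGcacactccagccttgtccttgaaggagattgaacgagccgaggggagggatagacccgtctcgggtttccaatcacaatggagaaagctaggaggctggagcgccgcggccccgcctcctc
The Bnip3 window held 5 matches, that of Aldoc 1, that of Ldhb 1 and that of Vegfa 0. Promoters of 34 of the 37 measured genes were matched by symbol, and those of Bnip3l, Ndrg1 and Slc2a3 were not used here. At least 1 window held the core in 32 of the 34 genes (94.1%), against 41.5% of all 27025 genes and 59.3% of genes that passed the expression filter. Counted by window it was 39 of 50 (78.0%), against 38.6% of all windows and 53.8% of those of filtered genes. Eno2 and Tpi1 were the 2 without it. The share was 17 of 18 among genes lower in the DICER1 mutants than with wild-type DICER1 and 14 of 15 among the other tested genes. A match is only these letters in this window, and binding was not measured.

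The arrays agreed closely within most groups, with a median standard deviation (SD) per gene between 0.0450 and 0.0891 on the log2 scale over the 9 groups. All 10 ES cell markers lay above the filter, with Pou5f1 means between 12.37 and 12.92. Arrays numbered 4, of which there is 1 in D1709A and 1 in wild-type DICER1, stood apart from the other arrays of their groups. Their deviations from arrays 1 to 3 summed to 0 within 1.33e-04 for every probe set, so they mirror each other and are not independent measurements. Likewise the wild-type DICER1 means of both vectors were equal within 7.5e-05. The p-values do not account for these relations and are approximate. Some results that rest on the arrays numbered 4 are given with and without them, and the others only with them.

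The 36 genes differed more between groups than the typical gene on the arrays. The median range of their 9 group means was 0.813 on the log2 scale, against 0.581 over all tested genes, and it passed 1 for 13 of the 36 (36.1%, against 19.8% of all genes). Wild-type DICER1 was the highest of the 9 groups for 14 of the 36 (12.4% of all genes), and the eGFP group was the lowest for 16 (13.6% of all genes). The Dicer-WT line was the highest for 7 (16.5% of all genes) and the lowest for 10 (19.8% of all genes). Aldoc, Bnip3, P4ha1, Pfkl, Pgk1, Ankrd37 and Bnip3l ran from eGFP at the bottom to wild-type DICER1 at the top. Vegfa, Pfkp, Ddit4, Pdk1 and Slc2a3 ran from eGFP to the Dicer-WT line.

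**Figure D1:**
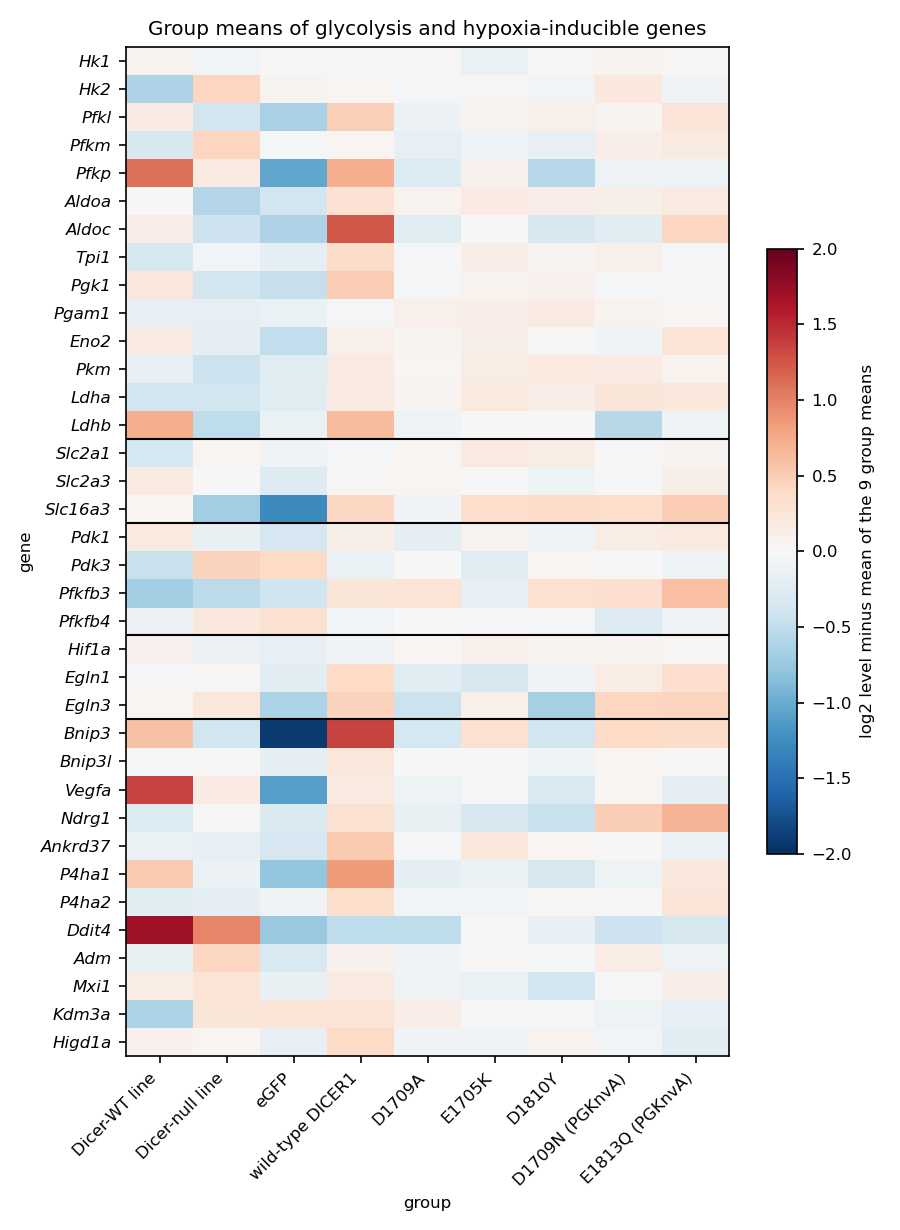
Group means of the 36 genes (vertical axis) in the 9 groups (horizontal axis), coloured by the log2 level minus the mean of that gene's 9 group means, with black lines between the enzymes, transporters, flux regulators, oxygen sensors with Hif1a, and other hypoxia-inducible genes. The eGFP column holds the lowest mean of 16 genes and the wild-type DICER1 column the highest of 14.

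Wild-type DICER1 was compared with the eGFP vector in Dicer-/- cells to see how these pathways differ. The labels name 1 line per transgene, so enzyme and line cannot be told apart. Genes said to rise or fall differ between these lines. With wild-type DICER1, 29 of the 36 genes rose and 2 fell, where 30.8% of all genes rose and 28.7% fell (limma, Benjamini-Hochberg adjusted p under 0.05). The median difference was 0.50 on the log2 scale, against 0.02 over all genes, and 8 genes at least doubled. Every wild-type DICER1 array lay above every eGFP array for 26 of the 36 genes, against 28.7% of all genes. Every one lay below for 2, against 26.7%. By role, 11 of 14 glycolytic enzymes, 2 of 3 transporters, all 3 of Hif1a, Egln1 and Egln3, and 11 of 12 other hypoxia-inducible genes rose. Of the 4 flux regulators, Pdk1 and Pfkfb3 rose and Pdk3 and Pfkfb4 fell.

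Among the enzymes, Aldoc, an aldolase, read 8.90, 8.87 and 8.90 on the log2 scale on the eGFP arrays and 10.36 to 10.90 (median 10.80) on the 6 wild-type DICER1 arrays. The groups did not overlap, and the array at 10.36 was number 4. The rise was 3.62-fold (log2 difference, 1.86; SE, 0.112; adjusted p = 3.19e-13). Pfkp, the platelet form of phosphofructokinase, which commits sugar to glycolysis, read 9.50, 9.52 and 9.36 with eGFP and 10.90 to 11.37 (median 11.27) with wild-type DICER1. Again no array overlapped, and Pfkp rose 3.41-fold (SE of the log2 difference, 0.0928; adjusted p = 2.36e-14). Its liver form Pfkl rose 2.17-fold, from 10.05, 9.91 and 10.06 to between 11.07 and 11.17 (median 11.13). Its muscle form Pfkm was not called (log2 difference, 0.07; SE, 0.0614; adjusted p = 0.313), but was called higher without the arrays numbered 4 (0.14, adjusted p = 0.00156).

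Other steps of the pathway moved by smaller amounts. Pgk1, which makes the first ATP of glycolysis, rose by 0.96 on the log2 scale, Aldoa by 0.67, Eno2 by 0.60 (from an eGFP mean of 6.29, under the filter level), Tpi1 by 0.57 and the pyruvate kinase gene Pkm by 0.40. Pgam1 rose by 0.09, a call lost in 4 of the fits that left out 1 array. Both subunits of lactate dehydrogenase rose. Ldhb read 10.66, 10.61 and 10.55 with eGFP and 11.30 to 11.47 (median 11.38) with wild-type DICER1, a rise of 0.78 (SE, 0.0455; adjusted p = 2.03e-13). Ldha read 13.23, 13.22 and 13.14 against 13.60 to 13.65 (median 13.62), a rise of 0.42 (SE, 0.0262; adjusted p = 5.65e-13). The hexokinases, which trap glucose in the cell, were not called, with Hk1 at -0.04 (adjusted p = 0.452) and Hk2 at -0.02 (adjusted p = 0.808).

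Of the transporters, Slc16a3, which exports lactate, rose 3.21-fold. Its level was 8.46, 8.44 and 8.35 with eGFP and 9.77 to 10.25 (median 10.17) with wild-type DICER1, with no overlap (log2 difference, 1.68; SE, 0.0943; adjusted p = 8.42e-14). The glucose transporter Slc2a3 rose by 0.28. Slc2a1, the other glucose transporter of the list, read 13.28, 13.30 and 13.23 against 13.23 to 13.44 (median 13.29), so the groups overlapped (log2 difference, 0.04; SE, 0.0421; adjusted p = 0.486). Among the regulators, Pfkfb3, which makes an activator of phosphofructokinase, rose by 0.63 and Pdk1, which restrains pyruvate dehydrogenase, by 0.46. Their relatives Pfkfb4 and Pdk3 fell by 0.36 and 0.53.

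Hif1a itself moved little. It read 11.27, 11.29 and 11.20 with eGFP and 11.31 to 11.47 (median 11.35) with wild-type DICER1, and the groups did not overlap. The rise of 0.11 (SE, 0.0448; adjusted p = 0.0439) lay near the threshold and was not called without the arrays numbered 4 (0.07, adjusted p = 0.0892). Its call was also lost in 5 of the fits that left out 1 array, with centred arrays and without the filter. The oxygen sensors moved further. Egln1 rose by 0.64 (SE, 0.0556) and Egln3 by 1.09 (SE, 0.225; adjusted p = 1.72e-04), or by 1.37 without the arrays numbered 4.

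The largest of all 36 rises was that of Bnip3, which marks mitochondria for removal. It read 8.66, 8.51 and 8.86 on the eGFP arrays. On the wild-type DICER1 arrays it read 12.27, 12.19 and 12.26 for numbers 1 to 3, 11.08 for number 4, and 11.96 and 11.94 with PGKnvA. Even the array numbered 4 was above every eGFP array. The difference was 9.67-fold (log2 difference, 3.27; SE, 0.226; adjusted p = 4.46e-12), and 3.56 on the log2 scale without the arrays numbered 4. P4ha1, a prolyl hydroxylase subunit that matures collagen, read 8.72, 8.57 and 8.59 against 9.89 to 10.39 (median 10.27) and rose 3.06-fold (SE of the log2 difference, 0.101; adjusted p = 7.27e-13). Vegfa, the growth factor of blood vessels, read 8.42, 8.08 and 8.45 against 9.35 to 9.71 (median 9.65) and rose 2.44-fold (SE, 0.0897; adjusted p = 5.56e-12). Neither gene had overlapping groups.

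Of the other hypoxia-inducible genes, Ankrd37 rose by 0.86, Ndrg1 by 0.59, the mitochondrial protein gene Higd1a by 0.55, P4ha2 by 0.42, the Bnip3 relative Bnip3l by 0.41, the peptide hormone gene Adm by 0.39 (from an eGFP mean of 6.38, under the filter level), the MYC antagonist Mxi1 by 0.34 and Ddit4, an inhibitor of mTORC1, by 0.24. The Ddit4 call was lost without wild-type DICER1 replicate 4 (0.14), without eGFP replicate 1 or 2, with centred arrays and with the replicate block. That of Adm was lost without eGFP replicate 3 (0.22), and its difference ran from 0.22 to 0.56 as single arrays were left out. The histone demethylase gene Kdm3a was not called (0.01, adjusted p = 0.847). Several markers of fibroblasts or feeder cells also rose in this comparison. Of 14 such markers 13 were measured, 4 lay under the filter level and 6 of the 9 tested rose while 1 fell. Their summed level, taken as the log2 of the sum, was 10.64 to 10.77 on the eGFP arrays, 11.14 to 11.44 with wild-type DICER1, 10.91 to 11.41 in the mutant groups, 10.41 to 10.52 in the Dicer-WT line and 10.58 to 10.61 in the Dicer-null line. Tagln had the highest mean of these markers in every group but the Dicer-WT line, and so weighed most in the sum. On the wild-type DICER1 arrays Tagln ran from 8.87 to 10.12 (median 9.03). Lum stayed between 3.84 and 4.38 on every array, under the filter level. Dcn, also left out by the filter, had means of 6.07 with eGFP, 5.88 with wild-type DICER1 and 6.97 in D1810Y. With wild-type DICER1 over eGFP, Pdgfrb rose by 1.30, Tagln by 0.999, Col1a1 by 0.52, Pdgfra by 0.38, Col1a2 by 0.35 and Snai2 by 0.26. Postn, under the filter level with eGFP, had means of 4.81 with eGFP and 7.21 with wild-type DICER1, and Prrx1 had means of 5.52 and 5.90. Twist1 fell by 0.33, and Thy1 and Col3a1 were not called. The part of these cells in the results was not tested. In RNA from whole cultures, fewer cells of a type and less RNA per cell cannot be told apart.

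**Figure D2:**
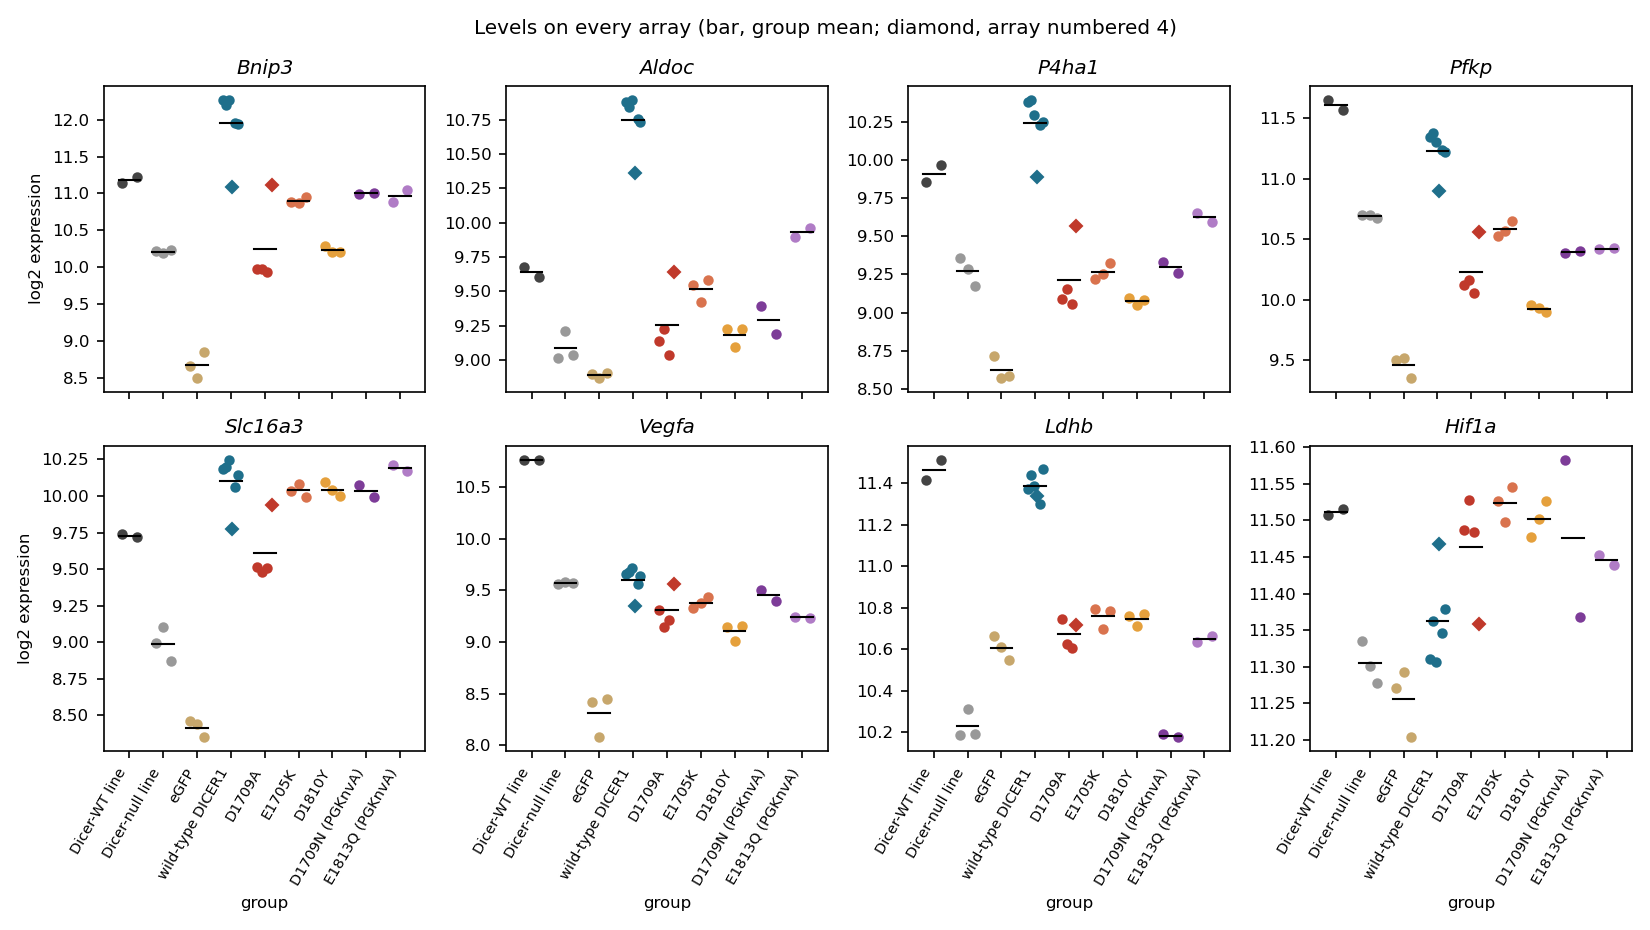
Log2 expression of 8 genes on every array, by group, with a bar at the group mean, circles for arrays and diamonds for the arrays numbered 4 of D1709A and wild-type DICER1; vertical axes differ between panels and do not start at 0. Bnip3 runs from 8.51 on an eGFP array to 12.27 on a wild-type DICER1 array, whereas Hif1a stays between 11.20 and 11.58.

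The choice of control mattered for these genes, because the eGFP line itself differed from the untransduced Dicer-null line. Both lack Dicer, yet 19 of the 36 genes were lower and 4 higher with eGFP (27.4% and 20.2% of all genes), with a median of -0.19 against -0.03 over all genes. After centring every array on its own median the counts were 23 and 3 (35.1% and 15.4% of all genes). Ddit4 fell by 1.71 on the log2 scale (SE, 0.0986; adjusted p = 3.88e-13), Bnip3 by 1.54 (SE, 0.241; adjusted p = 8.46e-06), Vegfa by 1.26 and Pfkp by 1.23. The 4 that rose were Ldhb (0.38), Aldoa (0.22), Pkm (0.22) and Ldha (0.12).

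Against the Dicer-null line, 22 genes were higher and 6 lower with wild-type DICER1 (31.3% and 33.2% of all genes), or 21 and 8 with centred arrays (24.4% and 41.6%). This comparison shares the wild-type DICER1 arrays with the eGFP comparison. Bnip3 was higher by 1.74 (SE, 0.226), Aldoc by 1.66 (SE, 0.112), Ldhb by 1.15 (SE, 0.0455), Slc16a3 by 1.11 and P4ha1 by 0.97. Pgk1 (0.88), Aldoa (0.89), Pkm (0.62) and Ldha (0.54) were higher by about as much as, or more than, they were against eGFP. Vegfa read 9.56, 9.58 and 9.58 in the Dicer-null line and was not called (0.03; SE, 0.0897; adjusted p = 0.799). Egln3 (0.24, adjusted p = 0.365) and Slc2a3 (0.01, adjusted p = 0.698) were also not called. Ddit4, Adm and Pfkm were lower than in the Dicer-null line, by 1.47, 0.34 and 0.39, although Ddit4 and Adm were higher than with eGFP.

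**Figure D3:**
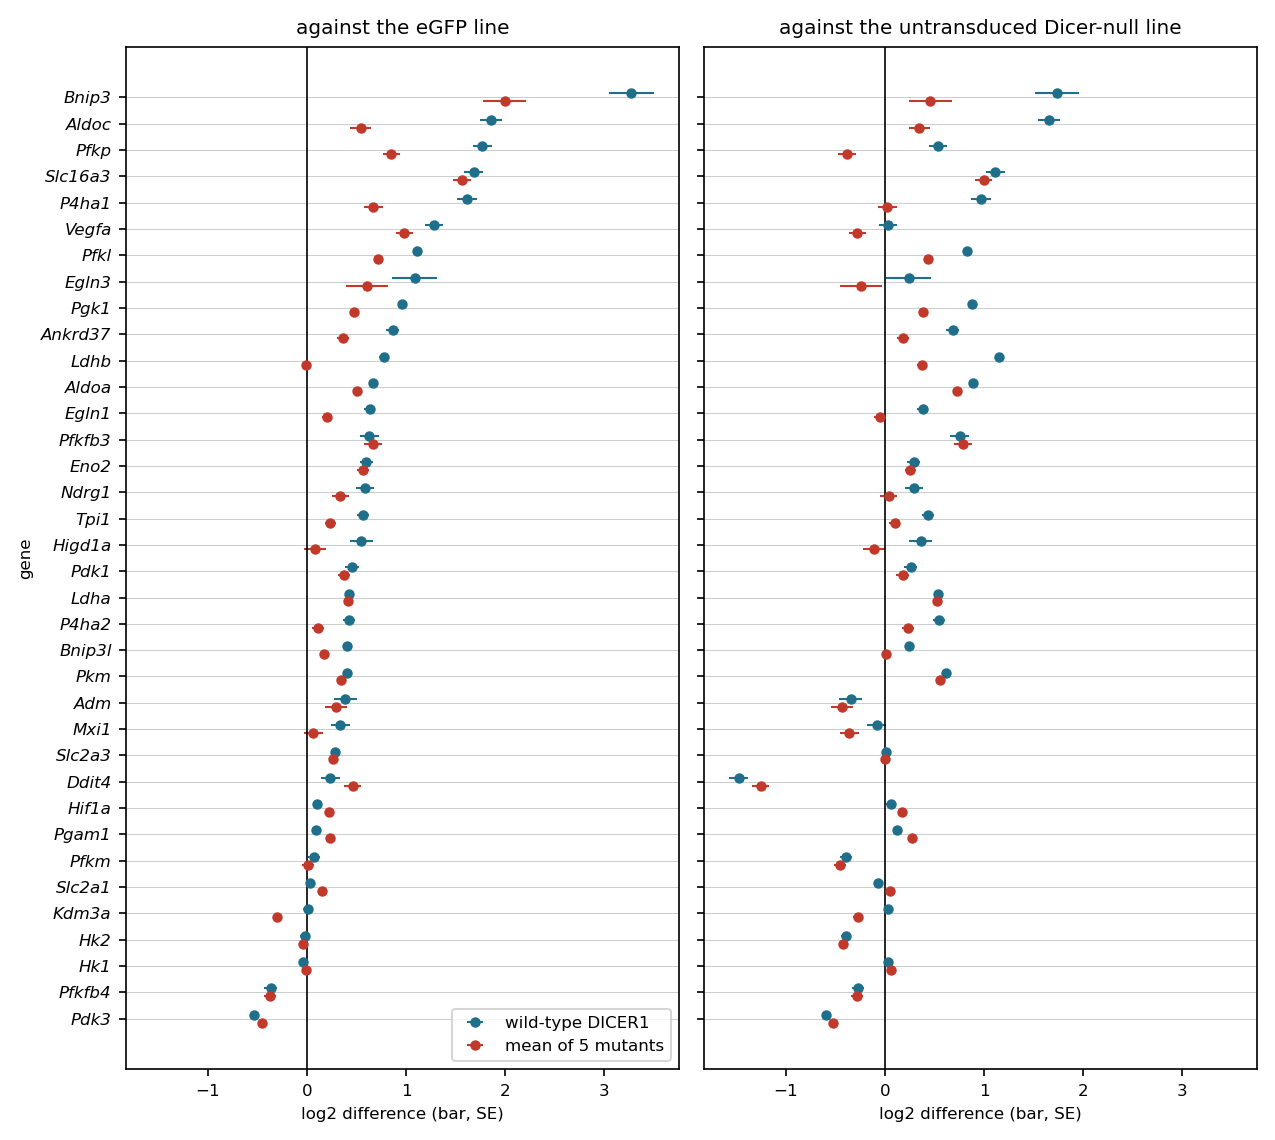
Log2 differences (horizontal axis; bar, SE) of 36 genes for wild-type DICER1 (blue) and the mean of the 5 mutants (red), against the eGFP group on the left and the untransduced Dicer-null line on the right. Vegfa with wild-type DICER1 lies at 1.29 on the left and at 0.03 on the right, and Ddit4 lies at 0.24 and -1.47.

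The parental lines give the same contrast of Dicer without a transgene, between 2 lines that may differ in other ways. In the Dicer-null line 17 of the 36 genes were lower and 9 higher than in the Dicer-WT line, where 27.2% and 30.7% of all genes were. With centred arrays the counts were 15 and 11 (20.7% and 37.5% of all genes). Of the 14 enzymes 9 were lower and 3 higher. Ldhb fell most, from 11.42 and 11.51 to 10.19, 10.31 and 10.19 (log2 difference, -1.23; SE, 0.0544; adjusted p = 6.18e-16). Vegfa fell by 1.19 from 10.77 and 10.76, Bnip3 by 0.97 from 11.14 and 11.22 to 10.22, 10.19 and 10.23, and Pfkp by 0.92 from 11.65 and 11.57 to 10.70, 10.70 and 10.67. Each of these genes had groups that did not overlap, but with so few arrays this is easily met, and it was not counted over all genes. Slc16a3 fell by 0.74, Ddit4 by 0.72, P4ha1 by 0.64, Pgk1 and Aldoa by 0.60 each, Aldoc by 0.55, Pfkl by 0.53 and Hif1a by 0.21. The Hif1a call was lost with centred arrays.

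The 9 genes higher in the Dicer-null line were led by Hk2, the inducible hexokinase, which read 9.68 and 9.53 in the Dicer-WT line and 10.63, 10.70 and 10.63 in the Dicer-null line (log2 difference, 1.05; SE, 0.0574; adjusted p = 4.2e-14). Pdk3 (0.91), Kdm3a (0.87), Pfkm (0.75), Adm (0.56), Slc2a1 (0.39), Pfkfb4 (0.33), Ndrg1 (0.28) and Tpi1 (0.26) were the others, of which Ndrg1 was not called without Dicer-null replicate 1 or without Dicer-WT replicate 1 or 2. Ldha was not called, at 13.09 and 13.05 against 13.09, 13.12 and 13.04 (log2 difference, 0.01; SE, 0.0313; adjusted p = 0.757).

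The parental contrast and that of wild-type DICER1 with eGFP share no array, so their directions can be set side by side. Of the 36 genes, 21 were called in both, and 18 of these were higher, or lower, with Dicer in both (85.7%), close to the 83.8% of all genes called in both. The same 16 genes were higher with Dicer in both, among them Bnip3, Aldoc, Pfkp, Pfkl, P4ha1, Vegfa, Slc16a3, Ldhb and Pgk1, and Pdk3 and Pfkfb4 were lower with Dicer in both. The 16 include Hif1a and Ddit4, whose calls with wild-type DICER1 over eGFP were lost in some fits. Tpi1, Ndrg1 and Adm went in opposite directions. Levels in wild-type DICER1 cells were not those of the Dicer-WT line, with 22 genes higher and 5 lower (28.1% and 24.8% of all genes). Aldoc was 1.11 and Bnip3 0.77 higher with the transgene, and Ddit4 was 2.19 and Vegfa 1.16 lower (log2 differences, -2.19 and -1.16), so the parental level was passed in some genes and not reached in others.

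The 5 hotspot mutants were compared with eGFP in the same way, where mutant enzyme and line again cannot be told apart. Over the mean of the mutants, 26 of the 36 genes were higher and 3 lower than with eGFP (29.3% and 23.8% of all genes), with a median of 0.32 against 0.02. All 3 transporters, all 3 of Hif1a, Egln1 and Egln3, 10 of 14 enzymes and 8 of 12 other hypoxia-inducible genes were called higher. Egln1 (0.20) and Egln3 (0.61) were not called without the PGKnvA arrays (0.02, adjusted p = 0.711, and 0.30, adjusted p = 0.239), and Egln3 was not called without eGFP replicate 3 (adjusted p = 0.0536). Adm (0.30) was not called without eGFP replicate 3 (0.13), and its call was also lost without eGFP replicate 1 and without wild-type DICER1 replicate 5. Bnip3 rose by 2.0 (SE, 0.215; adjusted p = 2.03e-08), Slc16a3 by 1.57 (SE, 0.0899; adjusted p = 2e-13), Vegfa by 0.98 and Pfkp by 0.85. Pdk3 (-0.45), Pfkfb4 (-0.38) and Kdm3a (-0.30) fell. Ldhb was not called (-0.01; SE, 0.0434; adjusted p = 0.934), and was 0.12 higher without the PGKnvA arrays. With the Dicer-null line as control, 15 genes were higher and 10 lower (32% and 32.1% of all genes), or 12 and 13 with centred arrays (24.2% and 41.1%). There Slc16a3 was 1.0 higher and Aldoa 0.72, while Bnip3 (0.46, adjusted p = 0.0656) and P4ha1 (0.02, adjusted p = 0.849) were not called and Pfkp was lower by 0.38 (log2 difference, -0.38).

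Set against wild-type DICER1 directly, the mutants had lower levels of many of these genes. Of the 36, 20 were lower and 5 higher, where 27.7% and 32.3% of all genes were, and the median was -0.20 against 0.01. Lower were 8 of 14 enzymes, 10 of 12 other hypoxia-inducible genes, Egln1 and Egln3, and none of the transporters or flux regulators. Without the arrays numbered 4, 23 were lower and 5 higher, with Slc16a3 (-0.20), Pdk1 (-0.14) and Pfkm (-0.11) added. The genes higher in the mutants were Ddit4 (0.22), Pgam1 (0.15), Slc2a1 (0.12), Hif1a (0.12) and Pdk3 (0.08). Every one of the 14 mutant arrays lay below every wild-type DICER1 array for 12 of the 36 genes, against 8.05% of all genes, and above for 0, against 8.97%. The 12 were Aldoa, Aldoc, Pfkl, Pfkp, Pgk1, Tpi1, Ldhb, Ankrd37, Bnip3l, Higd1a, Kdm3a and P4ha1. Cell type markers moved in the same comparison. Of the 10 ES cell markers 7 were lower and 2 higher in the mutants, with a summed level of 15.60 to 15.78 in the mutant groups and 15.68 to 15.78 with wild-type DICER1. Of the 9 tested fibroblast markers 4 were lower and 0 higher, with the summed levels given above. Their part in the result was not tested.

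The differences of Aldoc and Bnip3 were the furthest from 0, in an order that turned without the arrays numbered 4 (-1.41 and -1.51). Aldoc read 9.14, 9.22, 9.03 and 9.64 in D1709A, 9.55, 9.43 and 9.58 in E1705K, 9.23, 9.09 and 9.22 in D1810Y, 9.39 and 9.19 in D1709N, and 9.90 and 9.96 in E1813Q. All lay under the lowest wild-type DICER1 array (10.36), with E1813Q the nearest. The mean difference was -1.31 (SE, 0.0725; adjusted p = 7.92e-14), between -1.57 in D1810Y and -0.82 in E1813Q. Bnip3 read 9.98, 9.97, 9.93 and 11.12 in D1709A, 10.89, 10.87 and 10.95 in E1705K, 10.29, 10.21 and 10.21 in D1810Y, 10.998 and 11.01 in D1709N, and 10.89 and 11.05 in E1813Q. Only the D1709A array numbered 4, at 11.12, passed a wild-type DICER1 array, the one numbered 4 (11.08). The mean difference of Bnip3 was -1.28 (SE, 0.147; adjusted p = 4.24e-08). D1709A (-1.70) and D1810Y (-1.71) differed more from wild type than E1705K (-1.05), D1709N (-0.95) and E1813Q (-0.98), but these differences between mutants were not tested. Without the arrays numbered 4 the D1709A difference was -2.28.

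P4ha1 read 9.09, 9.15, 9.06 and 9.57 in D1709A, 9.22, 9.25 and 9.32 in E1705K, 9.09, 9.05 and 9.08 in D1810Y, 9.33 and 9.26 in D1709N, and 9.65 and 9.60 in E1813Q. Its difference from wild type was -0.95 (SE, 0.0658; adjusted p = 5.93e-12), with no overlap. Pfkp read 10.12, 10.16, 10.06 and 10.56 in D1709A, 10.53, 10.57 and 10.65 in E1705K, 9.95, 9.93 and 9.90 in D1810Y, 10.39 and 10.40 in D1709N, and 10.42 in both E1813Q arrays. It was lower by 0.92 on the log2 scale (log2 difference, -0.92; SE, 0.0604; adjusted p = 2.07e-12), most in D1810Y (-1.30). Ldhb lay between 10.61 and 10.79 in D1709A, E1705K, D1810Y and E1813Q, near its eGFP level, and read 10.19 and 10.18 in D1709N, like the 10.19 to 10.31 of the Dicer-null line. Its mean difference from wild type was -0.78 (SE, 0.0296; adjusted p = 6.27e-17). Pfkl lay between 10.48 and 10.92 on the 14 mutant arrays, above all eGFP and below all wild-type DICER1 arrays, and differed from wild type by -0.40 (SE, 0.0269; adjusted p = 3.88e-12).

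Vegfa lay between 9.01 and 9.56 in the mutants and overlapped with wild-type DICER1, from which it differed by -0.30 (SE, 0.0583; adjusted p = 6.93e-05). Slc16a3 read 9.48 to 9.94 in D1709A and 9.99 to 10.21 in the other mutants, against 9.77 to 10.25 with wild-type DICER1, and was not called (-0.12; SE, 0.0613; adjusted p = 0.104). Ldha read 13.45 to 13.72 in the mutants, around the wild-type range of 13.60 to 13.65 (log2 difference, -0.01; SE, 0.017; adjusted p = 0.61). Hif1a read 11.36 to 11.58, Slc2a1 13.25 to 13.54 and Hk2 10.10 to 10.54, and each overlapped with wild-type DICER1. Hk2 was not called (-0.02; SE, 0.0312; adjusted p = 0.567). Ldha differed by at most 0.07 in 4 of the 5 mutants and by -0.12 in D1709A, where it was called.

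Each mutant was also compared on its own with the same wild-type DICER1 arrays. In D1709A 24 genes were lower and 3 higher (21.7% and 24.1% of all genes), in E1705K 20 and 4 (20.7% and 27.3%) and in D1810Y 22 and 5 (25.2% and 28.5%). In D1709N 15 were lower and 1 higher (18.5% and 21.5%), and in E1813Q 15 and 3 (19.5% and 21.1%). The counts higher in D1709A, D1709N and E1813Q were 5, 5 and 6 without the arrays numbered 4. Pgk1 was lower by between 0.42 and 0.54 in the 5 mutants (log2 differences, -0.42 to -0.54), Higd1a by between 0.32 and 0.62 (-0.32 to -0.62) and Ankrd37 by between 0.30 and 0.66 (-0.30 to -0.66). Egln3 differed by -1.13 in D1810Y and -0.88 in D1709A, and was not called in E1705K (-0.36), D1709N (-0.03) or E1813Q (-0.01). Without the arrays numbered 4 these were -1.41 in D1810Y, -1.46 in D1709A and -0.64 in E1705K, which was then called (adjusted p = 7.22e-11). Ddit4 was called higher in E1705K (0.49) and D1810Y (0.34) and not in D1709A (0.0021), D1709N (0.09) or E1813Q (0.18). Without the arrays numbered 4 it was also called in D1709A (0.19, adjusted p = 0.00569) and E1813Q (0.18, adjusted p = 0.035).

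The vectors divide the mutants, and a direct test of the PGKnvA mutants (D1709N and E1813Q) against the ENvA mutants, each relative to wild-type DICER1 in the same vector, called 3 genes higher and 1 lower (8.52% and 9.46% of all genes), or 3 and 2 with centred arrays (6.41% and 12.6%). Ndrg1 was 0.89 higher (adjusted p = 3.3e-05), Egln1 0.45 higher (adjusted p = 4e-04), Pfkm 0.30 higher (adjusted p = 0.0154) and Ldhb 0.31 lower (log2 difference, -0.31; adjusted p = 0.00173). Mutation and vector cannot be told apart here, since no mutant was made in both vectors. As the wild-type DICER1 means of both vectors were equal in the deposited values, setting the mutants relative to them corrected nothing. Ndrg1, a stress-response gene, was lower than wild type in D1709A (-0.45), E1705K (-0.63) and D1810Y (-0.75), higher in E1813Q (0.38), and not called in D1709N (0.19, adjusted p = 0.217).

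The mutant difference was then taken within the 3 sets of arrays that hold both genotypes, namely ENvA numbers 1 to 3, ENvA number 4 and PGKnvA. The sign was the same in all 3 sets for 17 of the 36 genes, negative for 16 and positive for Pdk3. This was not counted over all genes, so it does not set these genes apart. Aldoc differed by -1.60, -0.72 and -1.14 in these sets, P4ha1 by -1.21, -0.32 and -0.78, Pfkp by -1.13, -0.34 and -0.82, and Ldhb by -0.68, -0.62 and -0.97. Bnip3 differed by -1.87, 0.04 and -0.96, so it was level between the 2 arrays numbered 4. Egln3 gave -1.17, 0.84 and -0.02, and Ndrg1 gave -0.74, 0.12 and 0.29. The set of number 4 holds 1 array of each genotype, mirrored as described, and allows no test. The PGKnvA values were fixed by the D1709N and E1813Q differences already given, because the wild-type DICER1 means of both vectors were equal. They are the mean of those differences and no separate check.

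**Figure D4:**
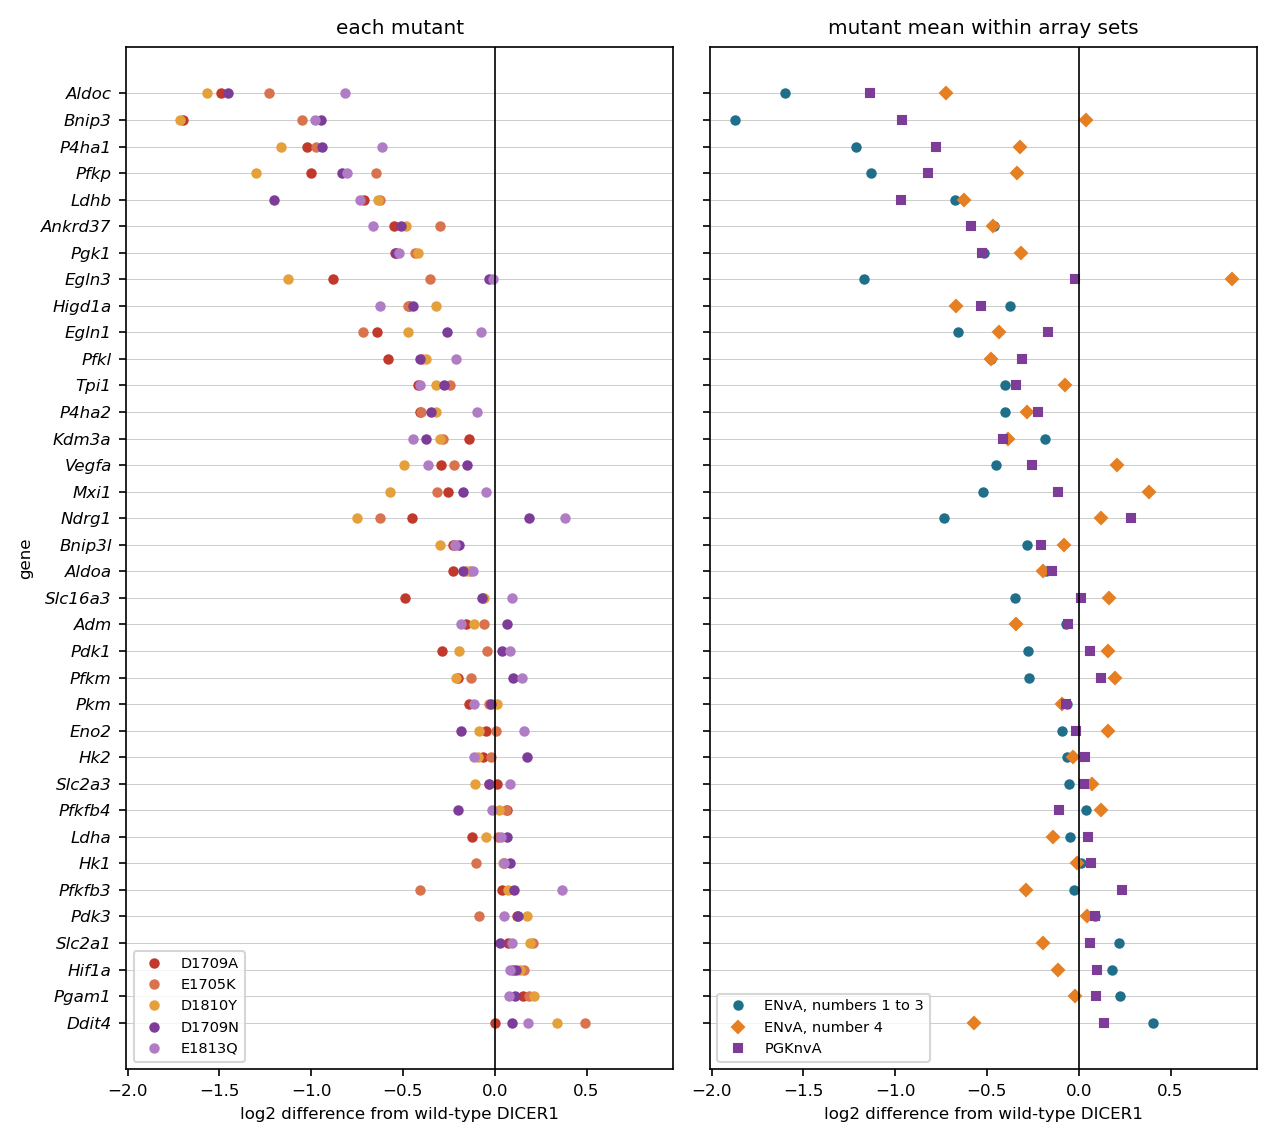
Log2 difference from wild-type DICER1 (horizontal axis) of 36 genes, for each of the 5 mutants over all arrays on the left and for the mutant mean within each of 3 array sets on the right. Aldoc lies at or below -0.82 in every mutant, and Bnip3 lies at -1.87, 0.04 and -0.96 in the sets ENvA 1 to 3, ENvA number 4 and PGKnvA.

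Other genes of these pathways, listed by function, were counted in the same way. Of all tested genes, 30.8% rose and 28.7% fell with wild-type DICER1 over eGFP, 29.3% and 23.8% did in the mutants over eGFP, 32.3% were higher and 27.7% lower in the mutants than in wild type, and 30.7% and 27.2% in the Dicer-null line. The counts below stand against these shares. Of 29 further hypoxia-inducible genes, 15 rose and 8 fell with wild-type DICER1 over eGFP, or 51.7% and 27.6%, with a median of 0.27 on the log2 scale against 0.02 over all genes. They include Hmox1, which degrades heme (1.82), Ndufa4l2, a mitochondrial protein gene (1.13), Plod2, a collagen lysyl hydroxylase (1.07), and Bhlhe40, a transcriptional repressor (0.74). In the mutants 14 of the 29 (48.3%) were lower than wild type and 5 (17.2%) higher, among them Hmox1 (-0.89), Bhlhe40 (-0.88), Plod2 (-0.83) and Ndufa4l2 (-0.76). Against eGFP the mutants had 12 (41.4%) higher and 5 (17.2%) lower. Between the parental lines 13 (44.8%) were higher and 5 (17.2%) lower in the Dicer-null line, and here Hmox1 (1.65), Bhlhe40 (1.30) and Plod2 (0.88) were higher without Dicer, although they rose with wild-type DICER1.

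Among 14 partners and regulators of HIF, 4 rose and 7 fell with wild-type DICER1 over eGFP, 4 rose and 4 fell in the mutants over eGFP, 4 were higher and 3 lower in the mutants than in wild type, and 5 were higher and 3 lower in the Dicer-null line. The share that fell with wild-type DICER1 was 50%, and the other shares lay between 21.4% and 35.7%. Epas1, which encodes the HIF2A subunit, was 2.20 higher in Dicer-null cells than in Dicer-WT cells (SE, 0.112; adjusted p = 9.93e-15). It fell by 1.38 with wild-type DICER1 (SE, 0.0936; adjusted p = 3.08e-12) and by 1.12 in the mutants relative to eGFP. Hif1an, which hydroxylates HIF and lowers its activity, was 0.60 higher in the Dicer-null line and fell by 0.35 with wild-type DICER1. Both moved against Bnip3, Aldoc and P4ha1 in these comparisons.

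Of 25 other genes of glycolysis, pyruvate and glycogen, 10 rose and 7 fell with wild-type DICER1 over eGFP (median, 0.01), and 8 were higher and 7 lower in the mutants than in wild type. The counts were 8 and 8 for the mutants over eGFP and 6 and 8 for the Dicer-null line over the Dicer-WT line. These are shares of 24.0% to 40%. Pgm1 and Pgm2, phosphoglucomutases that link glycogen to glycolysis, rose by 0.52 and 0.78 with wild-type DICER1 and were lower in the mutants by 0.93 and 0.68 (log2 differences, -0.93 and -0.68). Mpc1, a subunit of the mitochondrial pyruvate carrier, was 1.47 higher in the Dicer-null line, and fell by 0.39 with wild-type DICER1 and by 0.76 in the mutants relative to eGFP.

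Pyruvate dehydrogenase, citrate cycle and electron transport genes numbered 29 and moved both ways. With wild-type DICER1 over eGFP 10 rose and 13 fell (median, 0.03), in the mutants 5 and 13 over eGFP and 9 and 13 over wild type, and in the Dicer-null line 9 were higher and 13 lower. The share that was lower was thus 44.8% in each, and the share that was higher lay between 17.2% and 34.5%. The citrate synthase gene Cs (-0.62), Ogdh of the oxoglutarate dehydrogenase complex (-0.60) and the malate dehydrogenase gene Mdh2 (-0.48) fell with wild-type DICER1, while the succinate dehydrogenase subunit gene Sdhd rose by 0.52. Cs (0.21), Ogdh (0.37) and Mdh2 (0.19) were higher in the mutants than in wild type, opposite to Aldoc, Pgk1 and Ldhb.

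Several genes had more than 1 probe set, and these did not always give the same difference. The Pkm probe set used above was -0.06 in the mutants over wild type (adjusted p = 0.0169) and its other one 0.0048, and with their mean Pkm was not called. For Higd1a the Dicer-null line differed from the Dicer-WT line by -0.06 in the probe set used and 0.21 in the other. The Hk1 probe set used above was -0.04 with wild-type DICER1 over eGFP and 0.02 in the mutants over wild type, whereas its other probe set gave 0.29 and -0.48, so the direction of Hk1 is uncertain. Both Bnip3 probe sets gave similar rises with wild-type DICER1 (3.27 and 3.33), as did both of Ldhb (0.78 and 0.89). Pgk1 had 3 probe sets, 2 of them with identical values, at 0.96 and 0.95.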

How the data were processed

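The authors deposited log2 expression values for each probe set. RMA and Partek 6.6 are named in the submitters' processing notes. Their settings were not given in the sources used here. Per the labels' protocols, total RNA was extracted with the Qiagen miRNeasy kit. No scanner files were used. Of 35556 probe sets, 21789 had 1 symbol in the platform annotation, 1621 several and 12146 none, and array medians lay between 7.14 and 7.27. Each symbol took its probe set with the highest mean, and genes whose mean lay under the 30th percentile (6.42) were left out. No background level was measured.

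All 28 arrays were fitted together with limma 3.58.1 under R 4.3.3, with 9 group terms, a PGKnvA term and a mean-variance trend (18 residual degrees of freedom). The mutant mean weighted 5 groups equally. Figures were drawn with matplotlib 3.10.9 (Python 3.11.15). Tests were two-sided, with Benjamini-Hochberg adjustment over all 13956 genes and calls at an adjusted p under 0.05. The number of arrays limits precision. On simulated data for wild-type DICER1 against eGFP, 100% of 100 genes changed by 1 on the log2 scale and 60% of 100 changed by 0.3 were recovered, with 12 false calls among 13956 genes. The simulated arrays were independent, without the exact relations among the real ones, and far fewer genes changed. These shares therefore need not hold for the real arrays. The alternatives were no filter, centred arrays, averaged probe sets, no vector term, no trend, blocks, arrays left out, the Dicer-null line as control and differences within array sets, and the last 2 were added after seeing the data.

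The genes and lists were chosen with earlier results of these data known. All 40 could be named. Values of every array are given for the 5 with the largest called change in each of 4 comparisons (Dicer-null with Dicer-WT, wild-type DICER1 with eGFP, mutants with eGFP, mutants with wild-type DICER1) and for Hif1a, Vegfa, Slc2a1 and Ldha. From each other list, up to 3 called genes per comparison could be named.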

Additional observations from a re-analysis of the deposited data

Results flagged for a closer look

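Values on single arrays stood far from the rest of their group in 16 of 72 tests, made for 36 genes in the 2 groups of 4 to 10 arrays, where chance gives about 5% of groups. The test was not made over all genes, so the count does not set these genes apart. In every case the array was number 4, and the mirrored deviations of these 2 arrays make the entries dependent. In wild-type DICER1 this array read 10.895 for Pfkp, 10.364 for Aldoc, 12.767 for Pgk1, 10.351 for Pdk1, 9.3713 for Egln3, 11.082 for Bnip3 and 9.8886 for P4ha1, each the lowest of the group, and 9.0051 for Ddit4, the highest. In D1709A it read 9.9374 for Slc16a3, 10.207 for Egln3, 11.12 for Bnip3, 12.764 for Bnip3l, 9.0435 for Ndrg1 and 9.2622 for Mxi1, each the highest, and 8.4329 for Ddit4 and 10.958 for Kdm3a, each the lowest.

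The mutant effect differed between the vectors, by a test of that difference in limma with Benjamini-Hochberg adjustment, for 4 genes. PGKnvA minus ENvA mutants was 0.30 for Pfkm, -0.31 for Ldhb, 0.45 for Egln1 and 0.89 for Ndrg1.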

How the results depend on the processing

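Most values kept their side of the threshold. Of 520 gene values, 516 did so without the filter, 500 after centring, 508 without the vector term and 509 without the trend. Without the arrays numbered 4 it was 485, with 31 further values called and 4 lost. A change of direction was counted only where either fit called the value. Values called in neither fit could change sign and still count as kept. Without the arrays numbered 4, wild-type DICER1 over eGFP went from 0.036 to -0.0085 for Slc2a1 and from 0.011 to -0.030 for Kdm3a. The vector term was set by the wild-type DICER1 arrays alone, whose means were equal in both vectors, so it was near 0. Leaving it out could change the errors and the calls but not the differences, and does not check their direction. The cause was not tested for any change below. Of 88 same-numbered pairs of arrays 20 had correlated deviations above 0.1 (median -0.0185, lowest -1, highest 0.684). The deposited values hold exact relations among arrays, so this cannot exclude that replicate numbers pair them. A replicate block, fitted without the vector term, kept 504 of the 520 values on their side of the threshold. It gave 26 members higher and 2 lower for wild-type DICER1 over eGFP, and 4 higher and 19 lower for the mutants over wild type.

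The count higher than wild-type DICER1 was 5 in D1709A without the arrays numbered 4, 5 in D1709N without the vector term and 5 without the arrays numbered 4, and 6 in E1813Q without the arrays numbered 4. Leaving out 1 array gave 0 to 2 in D1709N, 0 to 3 in E1813Q and, for genes lower in wild-type DICER1 than in the Dicer-WT line, 3 to 6. With the Dicer-null line in place of eGFP, 6 genes were lower with wild-type DICER1, and 15 were higher and 10 lower in the mutants. That control turned the wild-type DICER1 difference of Pfkm (-0.39), Ddit4 (-1.47), Adm (-0.34) and Mxi1 (-0.084), and the mutant difference of Pfkm (-0.45), Pfkp (-0.38), Ldhb (0.37), Slc2a3 (-0.0023), Egln1 (-0.053), Egln3 (-0.24), Vegfa (-0.28), Ddit4 (-1.25), Adm (-0.43) and Mxi1 (-0.36). Averaging probe sets turned Hk1 in wild-type DICER1 over eGFP (0.13), mutants over wild type (-0.23), eGFP over Dicer-null (-0.31), D1709A (-0.21), D1709N (-0.24) and D1810Y (-0.38). Without the PGKnvA arrays, mutants over eGFP became 0.12 for Ldhb and -0.019 for Ndrg1. Mutants over wild type turned within the arrays numbered 4 for Pgam1 (-0.019), Slc2a1 (-0.19), Hif1a (-0.11), Egln3 (0.84), Bnip3 (0.038), Vegfa (0.21), Ndrg1 (0.12), Ddit4 (-0.57) and Mxi1 (0.38), and within PGKnvA for Ndrg1 (0.29).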
